A study of Homo sapiens with 12 samples.

Results

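The reporter variants described here carry stop codons on both sides of a single sense codon. Each variant is known by a window of 10 bases, and the members are the variants with a stop codon at bases 1 to 3, a sense codon at bases 4 to 6 and a stop codon at bases 7 to 9. They are called split-stop variants below. The upstream stop is the one at bases 1 to 3, and the downstream stop is the one at bases 7 to 9. All 3 stop codons in each place, 61 sense codons and 4 bases at base 10 make 2196 possible members. The EJC-independent reporter listed 895 of them, among 41955 variants in all, and the EJC-enhanced reporter listed 1319 among 51306. Below a mean normalized count of 10 variants were left out, which kept 894 and 1311 members. The members are defined by sequence alone, with no measured value in the rule, though earlier results of these data were known.

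The libraries were carried by HEK293T cells, an established line from human embryonic kidney, with wild-type background and 1 reporter library integrated at a single genomic place by Cre-Lox recombination. The EJC-independent and the EJC-enhanced reporter libraries, named after the exon junction complex, were each measured in 3 libraries from cells given DMSO, the solvent, and 3 from cells given SMG1i at 0.5 µM, in both cases for 24 hours before harvest. This makes 12 libraries in 4 groups. All 4 groups carry a reporter library, and cells without one were not analysed here. The labels name replicates but not separate cultures, so errors may be technical. Variants are located by their place in the reporter window, since no source used here gives coordinates for the integration.

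Nonsense-mediated mRNA decay (NMD) degrades mRNAs on which translation ends early. When a ribosome stops, the release factors eRF1 and eRF3 free the peptide, and the helicase UPF1, once phosphorylated by the kinase SMG1, commits the mRNA to decay. An exon junction complex left downstream of the stop makes this more likely. A stop codon can also be misread by a near-cognate tRNA, a process called readthrough, which depends on the stop codon and on the bases that follow it. A ribosome that reads through the upstream stop of a split-stop variant decodes 1 sense codon and then meets the downstream stop. In natural genes such a second in-frame stop close behind the first is known as a tandem stop.

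Response means here the ratio of RNA under SMG1i to RNA under DMSO, on the log2 scale, so a value of 1 is a 2-fold difference. The direction is an assumption, since the deposited tables do not name the numerator. Sequences with TGG, the tryptophan codon, in place of the stop serve as the control without NMD in the labels. Variants with a stop at bases 1 to 3 and TGG at bases 7 to 9 (upstream stop alone) and variants with a sense codon at bases 1 to 3 and a stop at bases 7 to 9 (downstream stop alone) are the matched comparisons.

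The windows below show 1 complete set, the 9 split-stop variants and the 3 upstream-stop variants around the proline codon CCC with C at base 10. Of the complete sets used, 11 in the EJC-independent and 45 in the EJC-enhanced reporter, this one had the highest lowest count in both. Capitals mark bases 1 to 3 and 7 to 9, the stop codons or TGG, and lower case marks the sense codon and base 10.
TAA and TAA: TAAcccTAAc
TAA and TAG: TAAcccTAGc
TAA and TGA: TAAcccTGAc
TAA and tryptophan: TAAcccTGGc
TAG and TAA: TAGcccTAAc
TAG and TAG: TAGcccTAGc
TAG and TGA: TAGcccTGAc
TAG and tryptophan: TAGcccTGGc
TGA and TAA: TGAcccTAAc
TGA and TAG: TGAcccTAGc
TGA and TGA: TGAcccTGAc
TGA and tryptophan: TGAcccTGGc

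The 9 split-stop variants of this set responded in the EJC-independent reporter by 1.50 to 2.41, with standard errors of 0.09 to 0.50 each and a mean of 2.18 ± 0.30 (SD over 9 sequences). The lowest was TAAcccTGAc at 1.50 ± 0.50 (SE), which also had the lowest count, and the highest were TAGcccTAGc at 2.41 ± 0.17, TGAcccTAAc at 2.41 ± 0.28 and TGAcccTAGc at 2.41 ± 0.09. The 3 variants with the upstream stop alone responded by 1.95 ± 0.13 for TAA, 1.94 ± 0.14 for TAG and 2.12 ± 0.13 for TGA. These lie within the range of the 9. With the same bases 4 to 10 behind a sense codon, the downstream stop alone averaged 1.66 ± 0.16 (SD over 61 sequences) for TAA, 1.67 ± 0.18 for TAG and 1.81 ± 0.19 for TGA. All of these averages were below 8 of the 9 split-stop variants.

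The same 12 sequences in the EJC-enhanced reporter had standard errors of 0.28 to 0.59, larger than in the EJC-independent one for each but TAAcccTGAc. The 9 split-stop variants responded by 1.66 to 2.97, with a mean of 2.23 ± 0.40 (SD over 9 sequences). The lowest was again TAAcccTGAc at 1.66 ± 0.39, and the highest was TGAcccTAGc at 2.97 ± 0.52. With the upstream stop alone the values were 1.78 ± 0.59 for TAA, 2.65 ± 0.52 for TAG and 1.62 ± 0.44 for TGA. Alone, the downstream stop averaged 2.25 ± 0.28 for TAA, 2.25 ± 0.26 for TAG and 2.26 ± 0.27 for TGA. Here the 3 kinds of variant overlapped.

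Over all members, RNA was higher under the inhibitor in both reporters. The EJC-independent members responded by 2.17 ± 0.03 on average (SE over 894 variants, SD 0.78), a 4.50-fold ratio, and the EJC-enhanced members by 2.21 ± 0.03 (SE over 1311 variants, SD 0.93), a 4.64-fold ratio. Variants with a sense codon in both places centred at -0.02 and 0.03. The middle of the distribution was narrow against its ends: in the EJC-independent reporter the 10th and 90th percentiles were 1.30 and 2.99, while the extremes were -3.96 and 5.70. The EJC-enhanced percentiles were 1.10 and 3.34 and the extremes -1.64 and 6.72. The most negative value, for TAAtggTAGa in the EJC-independent reporter, came with a mean count of 38.0 and without a deposited p-value.

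By the deposited adjusted p under 0.05, 765 of 891 EJC-independent members with a p-value were higher under the inhibitor (85.9%) and 0 were lower, against 64.8% higher and 1% lower over all variants of that table. Of 1300 EJC-enhanced members 963 were higher (74.1%) and 0 were lower, against 63.9% and 0.357%. The comparison is the authors' (DESeq or DESeq2, per the processing notes), and at an unadjusted p under 0.05 0 members were lower in either reporter as well. The table-wide shares include the TGG controls. Over downstream-stop variants alone the shares called higher were 84.9% and 86.1%, and over upstream-stop variants alone 80.6% and 72.5%. The split-stop share was thus above the table's background in both reporters and, in the EJC-enhanced reporter, below that of the downstream stop alone. The counts behind these variants differ: the median mean count was 124 for split-stop and 245 for downstream-stop variants in the EJC-independent reporter, and 68.7 and 143 in the EJC-enhanced reporter.

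The share of members called was larger at higher counts. Among EJC-independent members with counts of 10 to 50 it was 55.4% of 226 variants, and at 500 or more it was 100% of 132. Among EJC-enhanced members it was 50.9% of 495 variants at 10 to 50 and 95% of 20 at 500 or more. The mean response of EJC-independent members showed no order with the count, at 2.10, 2.25, 2.17 and 2.17 from the lowest to the highest count class. The lowest count class of EJC-enhanced members averaged 2.06 ± 0.05 (SE) and the next ones 2.31 ± 0.05 and 2.29 ± 0.04, and the 20 deepest members averaged 2.55 ± 0.18.

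Members that were well measured lay close together in the EJC-independent reporter. At mean counts of 500 or more, 132 members had a mean of 2.17 and an SD of 0.25, with a lowest value of 1.26 and a highest of 2.98. The root mean square of their standard errors was 0.21, so the spread was little larger than the measurement error. The 50 upstream-stop variants of that depth had the same mean, 2.17, with an SD of 0.23. The 9639 downstream-stop variants of that depth averaged 1.70 with an SD of 0.30, against a measurement error of 0.16. The 20 EJC-enhanced members of that depth lay further apart, from 1.71 to 5.27, with an SD of 0.81 against an error of 0.51. Over members of all counts used, the SD with the measurement error taken out was 0.46 in both reporters. For the upstream stop alone it was 0.41 in the EJC-independent and 0.46 in the EJC-enhanced reporter, and for the downstream stop alone 0.32 and 0.36. A wider spread in members was thus not seen at every depth. At counts of 500 or more the EJC-independent members had the smaller SD, 0.25 against 0.30 for the downstream stop alone.

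The first comparison asks whether a downstream stop changes the response of an mRNA that already has the upstream stop. Each member was set against the variant with TGG at bases 7 to 9 and the same other 7 bases. In the EJC-independent reporter the difference was 0.074 (95% interval -0.034 to 0.18, 562 pairs over 54 codons), with members at 2.17 and their partners at 2.10. For EJC-enhanced members it was 0.079 (-0.020 to 0.18, 1008 pairs over 58 codons), with members at 2.23 and partners at 2.15. Neither passed the test, a linear model fitted across all pairs with errors clustered on the intervening codon and Benjamini-Hochberg adjustment over 46 contrasts per reporter (adjusted p = 0.482 and 0.419). The intervals reach no higher than 0.18, which leaves small additions possible. Several members share 1 TGG partner, since 270 and 424 distinct TGG variants served the pairs.

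Split by the upstream stop, the EJC-independent differences were 0.084 after TAA, 0.075 after TAG and 0.066 after TGA, and the EJC-enhanced ones 0.13, 0.014 and 0.10. None of the 6 passed the test. The 3 upstream stops therefore gave values close to one another, with intervals that span 0 in each case. Split by the downstream stop, the EJC-independent differences were 0.14 for TAA (0.0009 to 0.28), -0.037 for TAG and 0.12 for TGA. The TAA value had an unadjusted p of 0.0486 and an adjusted p of 0.187 in the clustered model. It passed at mean counts of 50 or more (0.21, adjusted p = 0.0049) and with inverse variance weights (0.12, adjusted p = 0.0255). The EJC-enhanced differences were 0.10 for TAA, 0.071 for TAG and 0.066 for TGA, and none passed.

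Among the 9 stop pairs the EJC-independent difference ran from -0.12 for TGA followed by TAG (67 pairs) to 0.19 for TAA followed by TAA (53 pairs). The EJC-enhanced difference ran from -0.029 for TAG followed by TGA (120 pairs) to 0.24 for TAA followed by TAA (103 pairs, 0.015 to 0.47, adjusted p = 0.285 in the clustered model). None of the 18 passed the test, and with inverse variance weights the EJC-independent TGA followed by TGA did (0.20, adjusted p = 0.0293). TAA followed by TAA had the highest difference in both reporters, which is a description of an order and carries no test.

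Compared by level, the 9 stop pairs also lay close together. In the EJC-independent reporter the lowest mean was 2.05 ± 0.07 (SE, 108 variants) for TGA followed by TAG, and the highest was 2.34 ± 0.07 (98 variants) for TGA followed by TAA. Between them, in rising order, stood TAG followed by TGA at 2.08, TAG then TAA at 2.13, TAG then TAG at 2.15, TAA then TGA at 2.15, TAA then TAG at 2.16, TAA then TAA at 2.23 and TGA then TGA at 2.28. Neighbours in this order differ by less than their standard errors of 0.06 to 0.12. For the EJC-enhanced reporter the lowest was TAA then TAG at 2.07 ± 0.09 (137 variants), and the highest was TGA then TGA at 2.34 ± 0.07 (140 variants). The pair of TGA then TAG, lowest in the EJC-independent reporter, stood at 2.24 in the EJC-enhanced one.

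With the same bases 4 to 10, an upstream TGA exceeded TAG by 0.086 (-0.057 to 0.23, 185 pairs) and TAA by 0.10 (-0.096 to 0.30, 156 pairs) in the EJC-independent reporter. The corresponding EJC-enhanced differences were 0.090 (-0.044 to 0.22, 343 pairs) and 0.11 (-0.040 to 0.25, 311 pairs). TGA is the stop codon known for the most readthrough. None of these 4 contrasts passed the clustered model (adjusted p from 0.419 to 0.605). The EJC-independent excess of TGA over TAG passed with inverse variance weights (0.17, adjusted p = 0.0014) and at mean counts of 50 or more (0.20, adjusted p = 0.0374). Upstream TAA minus TAG was 0.060 in the EJC-independent and -0.093 in the EJC-enhanced reporter, and neither passed.

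With the upstream stop and the codon kept, the downstream stops were compared in the same way. Downstream TAA exceeded TAG by 0.089 (-0.065 to 0.24, 181 pairs) in the EJC-independent reporter and by 0.13 (-0.0015 to 0.25, 320 pairs) in the EJC-enhanced reporter. TGA differed from TAG by -0.0033 and 0.098, and from TAA by -0.089 and 0.037. None of the 6 passed, and of these the EJC-independent TGA minus TAA passed with inverse variance weights (-0.13, adjusted p = 0.0352). Where the stop at bases 7 to 9 was the only one, by contrast, the EJC-independent means were 1.69 for TAA, 1.63 for TAG and 1.84 for TGA, so TGA was the highest. Behind an upstream stop the means were 2.23, 2.12 and 2.17, with TAA the highest. In the matched comparison given further on, the upstream stop went with 0.53 more for downstream TAA, 0.49 for TAG and 0.34 for TGA. Whether these 3 gains differ from one another was not tested. The EJC-enhanced reporter showed no such change of order. Its means for TAA, TAG and TGA were 2.31, 2.26 and 2.30 with the downstream stop alone. In its members they were 2.25, 2.15 and 2.24.

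The base that follows the upstream stop, base 4, is the strongest known part of the context for readthrough, with C the most permissive. In the EJC-independent reporter the mean responses were 2.16 for A (142 members), 2.19 for C (336), 2.15 for G (174) and 2.16 for T (242). The EJC-enhanced means were 2.19 for A (247), 2.23 for C (447), 2.19 for G (279) and 2.23 for T (338). The means of the 4 bases thus lay close together in both reporters, with standard errors of 0.04 to 0.07. C minus the other bases was 0.027 (-0.069 to 0.12) and 0.022 (-0.079 to 0.12), and none of the 8 base contrasts passed the clustered model.

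The gain over the matched TGG variant did not pass the test for any base 4 either. Among EJC-independent pairs it was 0.14 for A (67 pairs), 0.11 for C (267), -0.046 for G (81) and 0.055 for T (147). Among EJC-enhanced pairs it was 0.037 for A (169 pairs), 0.087 for C (389), -0.0026 for G (169) and 0.14 for T (281, -0.015 to 0.30). C was thus not set apart in either reporter.

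Upstream stop and base 4 together make 12 classes of 35 to 119 EJC-independent members. Their means ran from 1.97 ± 0.16 (SE, 35 members) for TAA before A to 2.29 ± 0.12 (62 members) for TAG before A. TGA before C, the readthrough-prone combination, averaged 2.28 ± 0.06 (119 members), against 2.02 ± 0.11 (43 variants) with the upstream stop alone. These 2 means are over sequences that were not matched. A gap of this kind was not particular to TGA before C. TAA before G averaged 2.25 ± 0.10 (45 members) against 1.88 ± 0.17 (13 variants). TGA before G went the other way, at 2.27 ± 0.10 (51 members) against 2.42 ± 0.15 (17 variants). The 12 EJC-enhanced means ran from 2.05 ± 0.11 (85 members) for TAA before G to 2.37 ± 0.10 (89 members) for TGA before G. TGA before C stood at 2.30 ± 0.06 (153 members) there, against 2.27 ± 0.16 (53 variants) with the upstream stop alone. The order of the classes differed between the reporters, and no test was made over these classes.

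The share of members that the tables list varied with base 4. Of the possible EJC-independent members with A at base 4, 24.7% were listed, 58.3% with C, 30.4% with G and 51.7% with T. The EJC-enhanced shares were 43.1%, 78.5%, 48.6% and 72.4%. Of the possible members 40.8% were listed in the EJC-independent reporter, against 65.1% for the downstream stop alone, and in the EJC-enhanced reporter 60.1% against 77.5%. Variants with the upstream stop alone were close to the members, at 42.5% and 62.6%. The order by base 4 was not particular to members. With the EJC-independent downstream stop alone, codons starting with A had 206 to 638 variants used each. Codons starting with G had 216 to 638, those with T 356 to 694 and those with C 412 to 721.

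The base after the downstream stop, base 10, was compared with the other 9 bases kept. C exceeded the others in the EJC-independent reporter by 0.13 (0.022 to 0.25, 228 members) and A was lower by -0.16 (-0.31 to -0.018, 137 members), with adjusted p = 0.0914 and 0.120 in the clustered model. Base G was lower in the EJC-enhanced reporter by -0.17 (-0.29 to -0.043, 269 members), with an adjusted p of 0.218. None of the 8 contrasts passed, though the EJC-independent C passed with inverse variance weights (0.092, adjusted p = 0.0255), and the sign for A turned there. The bases that stood out differed between the reporters.

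The sense codon between the stops was represented for all 61 codons, by 3 to 36 members each (median 13 and 21). The codon after a stop carries a further part of the known readthrough context. The 4 highest EJC-independent codon means were GAA (glutamate) at 3.21 over 3 members, AGG (arginine) at 2.96 over 3, AGA (arginine) at 2.84 over 4 and TTA (leucine) at 2.84 over 7. The 4 lowest were GAT (aspartate) at 1.46 over 6, CAG (glutamine) at 1.68 over 8, GGT (glycine) at 1.72 over 8 and AAA (lysine) at 1.73 over 3. All 8 rest on fewer than 10 members. Among the 41 codons with 10 or more, means ran from 1.79 for GCT to 2.69 for ACA, and the SD of these means, 0.18, was below the root mean square of their standard errors, 0.21.

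The 4 highest EJC-enhanced codon means were CGG (arginine) at 2.65 over 19 members, GGC (glycine) at 2.60 over 18, AGA at 2.51 over 9 and ACA (threonine) at 2.45 over 21. The 4 lowest were AAA at 1.54 over 3, AGT (serine) at 1.65 over 12, CAG at 1.74 over 22 and AGG at 1.85 over 9. AGG was thus among the highest in one reporter and among the lowest in the other, while CAG and AAA were among the lowest and AGA among the highest in both. Among the 54 codons with 10 or more members the SD of the means was 0.21 and their standard errors 0.22. Among codons with 10 or more members the means thus varied by no more than their errors in either reporter. Over all 61 codons the SD was 0.33 against errors of 0.28 in the EJC-independent reporter, and 0.23 against 0.27 in the EJC-enhanced one.

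The codons CTA, CAA and CAG begin sequences known to favour readthrough. Members with CTA averaged 2.02 ± 0.20 (SE, 19 members) in the EJC-independent and 2.36 ± 0.20 (21 members) in the EJC-enhanced reporter. Upstream-stop variants with CTA averaged 1.58 over 5 and 2.24 over 11 variants. Members with CAA averaged 2.00 ± 0.22 (13 members) and 2.26 ± 0.19 (21), against 1.81 over 7 and 1.45 over 8 variants with the upstream stop alone. CAG, low in both, averaged 2.12 and 2.83 over 3 variants each with the upstream stop alone. For CTA and CAA the split-stop mean was the higher in both reporters and for CAG the lower, over few variants and with no test of single codons.

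The windows with CTA that combine it with an upstream TGA, a known readthrough signal, are shown with C at base 10, the only base at which both reporters hold the TGG partner.
TGA, leucine and TAA: TGActaTAAc
TGA, leucine and TAG: TGActaTAGc
TGA, leucine and TGA: TGActaTGAc
TGA, leucine and tryptophan: TGActaTGGc
TGActaTAAc responded by 2.49 ± 0.36 (SE) in the EJC-independent and 3.49 ± 0.95 in the EJC-enhanced reporter. TGActaTGAc responded by 3.04 ± 0.69 and 3.17 ± 0.58. TGActaTAGc, used in the EJC-enhanced reporter only, responded by 1.14 ± 0.52. The matched TGActaTGGc responded by 1.39 ± 0.73 and 2.86 ± 0.57. The variants with a downstream TAA or TGA lay above the TGG variant in both reporters, in the EJC-enhanced one by less than the combined standard errors, and the one with TAG lay below it. At other bases 10 the EJC-enhanced order was another: TGActaTAAg stood at 1.71 ± 0.50 against 2.69 ± 0.48 for TGActaTGGg. With T at base 10, TGActaTGAt stood at 2.73 ± 0.56 and TGActaTAGt at 4.25 ± 0.77, against 3.87 ± 1.10 for TGActaTGGt. The pattern with C was therefore not shared by the windows with G or T.

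The second comparison asks what an upstream stop changes for an mRNA that already has the stop at bases 7 to 9. Each member was set against the mean of the variants with a sense codon at bases 1 to 3 and the same bases 4 to 10. EJC-independent members were higher by 0.46 (0.39 to 0.52, SE 0.034, 894 members over 61 codons), or 1.37-fold, with means of 2.17 and 1.71. The difference passed the clustered model (adjusted p = 8.7e-18), whose errors come from the spread between codons and not between libraries. For EJC-enhanced members the difference was -0.076 (-0.13 to -0.025, 1311 members), with means of 2.21 and 2.29. It did not pass the clustered model (adjusted p = 0.197). With equal weight for each codon that value was -0.096 and passed (adjusted p = 0.0386), and at mean counts of 50 or more it was -0.0055 and did not.

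In the EJC-independent reporter the gain held for each stop in each place. It was 0.48 after an upstream TAA, 0.39 after TAG and 0.51 after TGA, and all 6 contrasts by upstream or downstream stop passed the clustered model. Of the 61 intervening codons, 56 had a higher mean in members than behind a sense codon, and so did 38 of the 41 codons with 10 or more members. For EJC-enhanced members 21 of 61 codons, and 20 of the 54 with 10 or more members, were higher. Its values by upstream stop were -0.11 for TAA, -0.11 for TAG and -0.0017 for TGA, and none of its 6 splits passed.

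The effects in both reporters were compared through these differences within each table. For the downstream stop behind an upstream stop (split-stop minus upstream stop alone), the reporters differed by 0.0049 (-0.15 to 0.16). For the upstream stop before a downstream stop (split-stop minus downstream stop alone), the EJC-enhanced value was lower by -0.53 (-0.61 to -0.45, adjusted p = 1.6e-18 in the clustered model). The interval and p come from the spread between codons and hold no term for differences between libraries. The split-stop means themselves, 2.17 and 2.21, lay close together, whereas the downstream stop alone stood at 1.72 and 2.29. Variants with the upstream stop alone averaged 2.12 and 2.15, close to the members in both reporters. The gap to the downstream stop alone is thus not particular to variants with 2 stops. Tables normalized apart do not allow a test of these levels.

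Codons for glycine and threonine had high responses, and codons for tyrosine and phenylalanine low ones, when they were the last codon before a single stop of the EJC-independent reporter in earlier results of these data. This contrast served as the reference here: 2.10 against 1.46 with the downstream stop alone, a difference of 0.65, a description of values the lists were chosen on. Behind an upstream stop the same codons gave 2.17 (86 members) and 2.23 (85 members), a difference of -0.056 (-0.30 to 0.19, adjusted p = 0.796 in the clustered model). The codon difference was thus -0.70 from the reference, which is given without a test because the reference chose the codons. With the upstream stop alone the lists gave 2.09 and 2.26, a difference of -0.17 (-0.51 to 0.18). Split-stop variants differed from that by 0.11 (-0.36 to 0.58), and neither value passed the clustered model (adjusted p = 0.605 and 0.796). In split-stop variants the codon stands before the downstream stop and after the upstream one.

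Members with TAC and TAT (tyrosine) averaged 2.04 and 2.39, against 1.44 and 1.39 behind a sense codon. Members with TTC and TTT (phenylalanine) averaged 2.26 and 2.22, against 1.50 and 1.47. All 4 of these codons were higher behind an upstream stop, as were 56 of all 61 codons. The 4 were listed for their low values behind a sense codon, so their direction is a description only. Members with the threonine codons ACC, ACG and ACT averaged 2.01, 2.03 and 2.05, against 2.09 to 2.10 behind a sense codon, while ACA averaged 2.69 over 10 members against 2.03. Members with the glycine codon GGC averaged 2.36 against 2.17, and those with GGT 1.72 against 2.08. GGA and GGG, with 3 and 5 members, averaged 2.43 against 2.12 and 2.37 against 2.14. The threonine and glycine codons, listed for their high values behind a sense codon, thus went in both directions. In the EJC-enhanced reporter the lists differed by -0.0043 in members and by 0.037 with the downstream stop alone, and neither passed the test. With the upstream stop alone they differed by 0.14 there, and the split-stop difference lay -0.14 from it, again without passing.

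Across codons with 10 or more members, the mean of members and the mean with the downstream stop alone had a Pearson r of 0.13 and a Spearman rho of 0.084 in the EJC-independent reporter (41 codons). The EJC-enhanced values were 0.24 and 0.26 (54 codons). The points share a library and the codon, and the errors of the member means are as large as their spread, so these values are a description.

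Single pairs of member and TGG variant were tested with the deposited standard errors (Wald z, Benjamini-Hochberg over all stop and TGG pairs of the table, adjusted p under 0.05). Of 562 EJC-independent members 31 were higher than their TGG partner (5.52%) and 27 were lower (4.80%), against 76.1% and 0.15% over all stop and TGG pairs. Of 1008 EJC-enhanced members 41 were higher (4.07%) and 25 lower (2.48%), against 76.2% and 0.098%. Where the upstream codon was sense, 77.8% and 78.5% of pairs were higher with the stop. With an upstream stop in place, calls were thus rare and fell in both directions, and 52.3% and 52.9% of the differences were above 0. Most pairs in the adjustment differ, so its error rate does not hold within the members. At an unadjusted Wald p under 0.05, 40 EJC-independent members were higher and 30 lower, and 46 and 39 EJC-enhanced ones.

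The members with the highest and lowest responses, at mean counts of 100 or more, show how far single values reach. They were picked by their value, so they are described without a test.
EJC-independent, highest: TGAcatTAAc
EJC-independent, lowest: TAGacgTAGg
EJC-enhanced, highest: TGAtccTGAa
EJC-enhanced, lowest: TAAgttTAAg
TGAcatTAAc responded by 4.11 ± 0.37 (SE) in the EJC-independent reporter and by 1.09 ± 0.49 in the EJC-enhanced one. Next to it stood TGActcTAGa at 3.64 and TAAccgTAAt at 3.42, which had 1.68 and 2.63 in the other reporter. TAGacgTAGg was the lowest at 0.21 ± 0.42, followed by TAGaccTAGt at 0.50 and TGAtccTGAt at 0.54. The latter had 2.86 and 2.22 in the EJC-enhanced reporter.

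TGAtccTGAa responded by 5.27 ± 0.45 in the EJC-enhanced reporter and by 2.03 ± 0.25 in the EJC-independent one. TAGtttTGAt at 4.66 and TAGtcgTAAa at 4.60 followed, with 1.76 and 2.04 in the EJC-independent reporter. TAAgttTAAg was the lowest at -0.61, with a standard error of 2.11 that exceeds the value, and TGAactTAGg at -0.19 and TAGccaTGAa at 0.095 came next. These 3 had 1.39, 2.48 and 2.43 in the EJC-independent reporter. Each of these extremes was thus nearer the mean in the other reporter, wherever both used it. TAAccgTAAt and TAAgttTAAg stayed on the same side of the mean, and the other 9 crossed it.

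The pairs that differed most, with counts of 100 or more in both members, were chosen the same way and again carry no test. Among EJC-independent pairs TAAccgTAAt exceeded TAAccgTGGt by 1.69, TGAcctTAAc exceeded TGAcctTGGc by 1.52 and TGAttcTAAa exceeded TGAttcTGGa by 1.44. All 3 end in a downstream TAA, as do 192 of the 562 EJC-independent pairs at any count used. The 3 highest EJC-enhanced pairs, named below, end in TGA, TAG and TAA. At the other end TGAtccTGAt differed from TGAtccTGGt by -2.01, TAGaccTAGt from TAGaccTGGt by -1.79 and TGAtccTAGt from TGAtccTGGt by -1.47. The first and the last of these share 1 TGG partner, at 2.55 ± 0.31.

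In the EJC-enhanced reporter TAAcaaTGAc at 4.15 ± 0.65 exceeded TAAcaaTGGc at 0.94 ± 0.77 by 3.21. The same sequences stood the other way round in the EJC-independent reporter, at 1.26 ± 0.21 and 2.18 ± 0.23. TAAaccTAGc and TGAcccTAAa exceeded their TGG partners by 2.35 and 2.33. The lowest differences were -3.73 for TAGactTAGt, -2.17 for TAAccaTAGc and -2.08 for TGAcatTAAc, the member with the highest response in the EJC-independent reporter. TGAcatTAAc and TGAcatTGGc stood at 4.11 and 1.14 in the EJC-independent reporter. Of the 12 pairs named by their difference, these 2 and those of TAAaccTAGc, TAAccgTAAt and TGAttcTAAa had the opposite sign in the other reporter. TAAaccTAGc and TAAaccTGGc stood at 1.69 and 1.75 in the EJC-independent reporter. TAAccgTAAt and its partner stood at 2.63 and 2.88 in the EJC-enhanced reporter, and TGAttcTAAa and its partner at 2.56 and 4.12. The other 7 pairs kept their sign, but in the other reporter each differed by less than the combined standard errors. In the EJC-independent reporter these were TAGactTAGt (1.99 ± 0.18 against 2.17 ± 0.42), TAAccaTAGc (1.23 ± 0.75 against 1.47 ± 0.68) and TGAcccTAAa (2.36 ± 0.22 against 1.88 ± 0.50). In the EJC-enhanced reporter they were TGAcctTAAc (2.52 ± 0.34 against 2.08 ± 0.35), TGAtccTGAt, TAGaccTAGt and TGAtccTAGt.

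Both reporters used 705 of the same members, which is 78.9% of the EJC-independent and 53.8% of the EJC-enhanced ones. Across these sequences the responses in the reporters had a Pearson r of 0.019 and a Spearman rho of 0.027, and at counts of 100 or more in both r was 0.0020 over 291 sequences. The sequences share their 10 bases and nothing of the libraries. The shared members averaged 2.17 in the EJC-independent and 2.36 in the EJC-enhanced reporter. Members used in the EJC-enhanced reporter only averaged 2.05 over 606 variants, with a median count of 43.2 against 109 for the shared ones. Which of the variants enter therefore moved with the count in that reporter, and its part in the means was not tested.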

How the data were processed

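Per the labels, RNA from 12 libraries (2 reporters, DMSO or SMG1i, 3 replicates each) was read at the reporter. For each reporter the authors deposited a single table that compares the treatments, without values of single libraries. The tools named in the submitters' processing notes are DESeq and DESeq2, with no versions, and read assignment is not described in the sources used here. Per the file headers, the deposited columns are a normalized count averaged over a reporter's 6 libraries (a signal, not a raw count), the log2 fold change and its standard error, the Wald score, and p-values before and after adjustment. The deposited numerator is not named. The sign was reversed, so that stop variants, negative as deposited, are read as higher under the inhibitor. With the opposite numerator all signs would turn. The tables were normalized apart, and depth per library is unknown.

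A mean normalized count of at least 10 was required. Members, codon lists and comparisons were chosen with earlier results of these data known. Differences of matched variants were averaged and tested two-sided in a linear model with standard errors clustered on the codon at bases 4 to 6 (Python 3.11.15, numpy 2.4.6, pandas 2.3.3, scipy 1.17.1). Benjamini-Hochberg adjustment ran over 46 contrasts per reporter, and separately over the 2 contrasts between reporters, with a threshold of 0.05. Single pairs were tested by a Wald z from the deposited standard errors. The procedures were tested on simulated data. Variants are sequences in the same libraries and not replicate cultures, so errors over variants describe the spread between sequences. Errors of single variants are the deposited standard errors.

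Named contexts follow a rule: all stop codons, stop pairs and bases, the 4 highest and 4 lowest codons, the codons CTA, CAA, CAG and GGC, and the 3 highest and 3 lowest members and pairs at counts of 100 or more. The complete set around CCC was chosen by its counts, and the set with CTA, GCT and single Gly, Thr, Tyr and Phe codons were added after their values were seen. Alternatives were no count filter, a count of 50 or more, inverse variance weights, equal codon weights, no clusters and a threshold of 0.01. Leaving out variants without a p-value, and using 18 sense codons 1 base from a stop as partners, were added after seeing the data.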

Additional observations from a re-analysis of the deposited data

Results flagged for a closer look

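The difference between split-stop variants and the downstream stop alone was not the same in the reporters. Split-stop minus downstream stop alone was 0.46 in the EJC-independent reporter (members 2.17, partners 1.71) and -0.076 in the EJC-enhanced reporter (members 2.21, partners 2.29). The difference of these differences was -0.53 (95% interval -0.61 to -0.45) in the clustered model. This interval covers the spread between codons and not differences between libraries. It was -0.48 at mean counts of 50 or more, -0.53 with inverse variance weights and -0.58 with equal codon weights. With the partners limited to sense codons 1 base from a stop it was -0.54. Variants with the upstream stop alone, not matched here, averaged 2.12 in the EJC-independent and 2.15 in the EJC-enhanced reporter. They lay close to the members, so this result is not particular to a second stop.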

How the results depend on the processing

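Of 603 values recomputed under alternatives, for 102 results, 543 kept their direction and their side of the threshold. For counts of calls, kept means that the number stayed within a fixed ratio of the main one. The 543 include all 94 values without clusters, a setting that cannot move an estimate. They also include all 102 values without the count filter, which brings back few members. The 10 of 94 contrasts that passed the test also passed under each alternative run for them; these include the codon list contrasts that use the downstream stop alone, whose values chose the lists. No paired analysis was possible because the tables hold no value per library, so another normalization and left-out replicates were not run either. In 33 contrasts that did not pass, 46 values changed sign, and none of the 46 passed. The cause was not tested.

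Single pairs at an adjusted p under 0.01 numbered 12 higher and 12 lower in the EJC-independent and 11 and 8 in the EJC-enhanced reporter. At counts of 50 or more, 16 EJC-independent pairs were lower and 25 EJC-enhanced pairs higher.

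Equal codon weights moved split-stop minus downstream stop alone in the EJC-enhanced reporter to -0.096, past the threshold. They turned 4 values for base 4 (EJC-independent A to 0.011, C to -0.036 and G to 0.054, EJC-enhanced G to 0.027) and EJC-enhanced base 10 (A to -0.0055, C to 0.065). Of split-stop minus upstream stop alone, the EJC-enhanced values turned for upstream TAG (-0.0088), base 4 A (-0.024) and base 4 G (0.27). Downstream TAA minus TAG became -0.034 in the EJC-independent reporter.

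Inverse variance weights turned base 4 T (EJC-independent, 0.034), base 4 C (EJC-enhanced, -0.0092) and EJC-independent base 10 (A to 0.033, T to -0.0054). Of split-stop minus upstream stop alone, the EJC-independent values turned for downstream TAG (0.015), TAA then TGA (-0.12), TAG then TGA (-0.037) and base 4 A (-0.020), and the EJC-enhanced one for TAA then TAG (-0.0013). The codon list difference, split-stop against upstream stop alone, went from 0.11 to -0.097 in the EJC-independent reporter, and downstream TGA minus TAA -0.017 in the EJC-enhanced one.

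A count of 50 or more turned EJC-independent base 4 (A to 0.013, C to -0.021, T to 0.028) and base 10 (A to 0.042, T to -0.065), and EJC-enhanced base 4 (A to 0.052, C to -0.045). Of split-stop minus upstream stop alone, the EJC-independent values turned for upstream TAA (-0.0043), TAA then TAG (-0.077), TAA then TGA (-0.12) and base 4 G (0.068). The EJC-enhanced ones turned for upstream TGA (-0.022), TAG then TAA (-0.0015), TAG then TGA (0.033), TGA then TAA (-0.075), TGA then TAG (-0.049) and base 4 A (-0.040). Of split-stop minus downstream stop alone, the EJC-enhanced values turned for upstream TGA (0.040) and downstream TGA (0.013). The EJC-independent codon list difference became -0.0053, and the difference between reporters in split-stop minus upstream stop alone -0.033.

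Without variants that lack a p-value, EJC-independent base 4 T became 0.010, base 10 T -0.00021 and the EJC-enhanced value for base 4 G 0.00070. With partners 1 base from a stop, EJC-enhanced upstream TGA became 0.012.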

Other observations

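Other layouts of in-frame stops in the same window gave values that set the split-stop variants in context, without a test. With the EJC-independent reporter a stop at bases 4 to 6 followed by TGG averaged 1.76 ± 0.04 (SE, 317 variants), and stops at bases 4 to 6 and 7 to 9, with no codon between them, averaged 1.85 ± 0.02 (945 variants). Stops in all 3 places averaged 2.14 ± 0.20 (26 variants). Stops at bases 1 to 3 and 4 to 6 followed by TGG averaged 1.94 ± 0.24 (12 variants), against the split-stop mean of 2.17. The corresponding EJC-enhanced means were 2.23 ± 0.04 (449 variants), 2.23 ± 0.03 (1295), 2.06 ± 0.17 (37) and 2.35 ± 0.21 (6), against the split-stop mean of 2.21.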
